A study of Homo sapiens with 6 samples.

Results

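The genes examined were 10 regulators of the G1 phase of the cell cycle: the D-type cyclins CCND1, CCND2 and CCND3, the E-type cyclins CCNE1 and CCNE2, the kinase CDK6, the Cip/Kip inhibitors CDKN1A and CDKN1B, and the INK4 inhibitors CDKN2A and CDKN2B. They were chosen by name, as the rows of the count table whose Ensembl identifiers belong to these symbols in GENCODE release 29, and all 10 were found among the 58735 genes of the table. Each had enough reads to be tested. No difference between siHOXA3 and siControl cells passed the test in any of them. The levels of the 10 genes, in contrast, spanned a wide order, with CDKN1A and CCND2 at the top and CDKN2A at the bottom in all 6 libraries.

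The cells were endoderm of the third pharyngeal pouch (3PPE), the embryonic tissue that gives rise to the thymus and the parathyroid glands, made from H9 cells, a wild-type human embryonic stem cell line (WA09) first grown on mouse feeder cells. All cells received Activin A and WNT3A with a ROCK inhibitor, and then retinoic acid, SB431542, BMP4 and, by the study's methods, IWP2 or IWR1. At day 7 they were given either a negative control siRNA (siControl, n = 3) or an siRNA against HOXA3, a transcription factor of the pouch (siHOXA3, n = 3), by lipofection. Some hours later the medium with these factors was exchanged for opti-MEM, and RNA was taken at day 9 for RNA-seq. The siRNA acts transiently and every library came from the same line. The study's methods speak of triplicates and a legend covering several assays of independent biological repeats, but the labels do not say how the sequenced replicates were separated. The p-values below set a difference between groups against the spread between these samples, whatever separated them. Whether the HOXA3 siRNA altered proliferation of these cells was among the questions of the study, and the genes that control entry into S phase are one place to look for it in the RNA.

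In G1, D-type cyclins bind the kinases CDK4 and CDK6 and start the phosphorylation of the retinoblastoma protein, which releases E2F transcription factors from repression. E-type cyclins then bind CDK2 and drive the cell into S phase. INK4 proteins bind CDK4 and CDK6 directly, while Cip/Kip proteins act on complexes of cyclins and CDKs, those with CDK2 above all. Embryonic stem cells are known for a short G1 phase that lengthens as they differentiate. Much of the control of these proteins lies in their degradation and phosphorylation, which RNA levels do not show.

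Of the 10 genes, 7 matched an entry among the RefSeq promoters searched (GRCh38.p14), CCND1, CCND2 and CCNE2 being the others. Entries on the chromosome of CCNE2 were left out of this search, so it cannot tell whether RefSeq holds a promoter of CCNE2. The inhibitors held both ends of the order of levels, CDKN1A the highest and CDKN2A the lowest, and the sequence before 1 annotated start of each of these genes and of CDKN2B is shown for that reason. The CDKN1A start used lies inside the gene as GENCODE 29 bounds it, at 36676460 to 36687339. Each stretch covers bases -250 to -59 relative to an annotated RefSeq start, the part of the promoter in which no protein-coding exon of GENCODE 29 lies, written 5′ to 3′ on the gene's own strand. Capitals mark the GC box, GGGCGG or its reverse complement, to which SP1 family factors bind. CDKN1A is read at chr6:36678464-36678655 on the plus strand, CDKN2B at chr9:22009364-22009555 and CDKN2A, upstream of its distal start, at chr9:21995383-21995574, both on the minus strand.
CDKN1A: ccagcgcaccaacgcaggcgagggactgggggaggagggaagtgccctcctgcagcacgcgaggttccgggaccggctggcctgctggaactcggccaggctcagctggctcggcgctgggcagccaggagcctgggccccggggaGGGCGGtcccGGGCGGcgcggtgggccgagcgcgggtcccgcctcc
CDKN2B: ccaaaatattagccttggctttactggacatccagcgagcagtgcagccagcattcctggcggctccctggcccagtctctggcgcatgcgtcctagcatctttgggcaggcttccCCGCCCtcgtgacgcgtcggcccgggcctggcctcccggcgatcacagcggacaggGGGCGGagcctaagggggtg
CDKN2A: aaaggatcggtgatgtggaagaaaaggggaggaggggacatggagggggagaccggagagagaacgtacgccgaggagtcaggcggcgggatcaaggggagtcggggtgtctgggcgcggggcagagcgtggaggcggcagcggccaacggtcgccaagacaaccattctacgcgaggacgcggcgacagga

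The CDKN1A stretch held 2 GC boxes, which began at -104 and -94, and the CDKN2B stretch held 2, at -134 and -78, of which the first lay on the other strand. The CDKN2A stretch held none, which describes the distal start only. A GC box on either strand was present in 33.4% of the 35116 promoters of the table over the same 192 bases. None of the 3 stretches held an E2F motif (TTTCGCGC, TTTGGCGC, TTTCCCGC or TTTGCCGC; 2.11% of promoters), a TATA box (TATAAA; 7.44%), the TCF/LEF motif CTTTGAT (1.80%) or the E box CACGTG (4.18%), searched on both strands. The matches describe the letters only. Bases between -59 and the start were not searched, so a motif there, a TATA box included, would have been missed. The G+C content was 77.6% in CDKN1A, 66.1% in CDKN2B and 65.6% in CDKN2A.

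Total counts ranged from 14885355 to 15191386 in siControl and from 14117150 to 15282307 in siHOXA3, and 3 counts, the limit that a count of 0 allows, corresponded to 0.197 to 0.211 CPM, the count scaled to the normalized size of the library. These limits and the Poisson intervals below cover counting error only. HOXA3 itself had 248, 240 and 236 counts in siControl and 159, 199 and 220 in siHOXA3, and after scaling to library size siHOXA3 replicate 3 reached the lowest siControl library (15.5 CPM in both), so that the groups overlapped (16.0 ± 0.606 against 13.2 ± 2.28 CPM; SD, n = 3). Its log2 fold change was -0.27 (SE 0.157, 95% confidence interval -0.62 to 0.07, adjusted p = 0.828, edgeR), so a lower level of the target did not pass the test in these libraries. It was -0.15 without siHOXA3 replicate 1 and -0.40 without siHOXA3 replicate 3. siHOXA3 replicate 2 stood apart: the chi-square per gene was 28.2 to 34.1 in its 5 pairs with other libraries and 4.83 to 11.7 in the other 10 pairs. Of the pouch and foregut markers, EPCAM, EYA1 and HOXA3 were present, while PAX9 had 0 to 16 counts per library, and PAX1, FOXA2, SOX17, PAX8 and FOXN1 at most 3. The 12 markers of this list summed to 311 to 323 CPM in siControl and 314 to 441 CPM in siHOXA3. Most of this sum was EPCAM (mean 286 CPM over the 6 libraries), which marks epithelial cells in general. The 10 amnion and trophoblast markers were all present and summed to 5952 to 6482 CPM in siControl and 6485 to 7186 CPM in siHOXA3. The largest part came from IGFBP3 (mean 3382 CPM over the 6 libraries), which is also in the list of quiescence and senescence genes below. Of the 8 mesenchyme markers, PRRX1 was at 0 and the sum was 4487 to 4660 and 4509 to 4995 CPM. The 7 pluripotency markers summed to 1261 to 1315 and 1320 to 1479 CPM, mostly from LIN28A (mean 1099 CPM), while POU5F1 and SOX2 averaged 6.25 and 3.89 CPM, NANOG had 0 to 4 counts and TDGF1 3 or fewer. The 7 neural markers summed to 65.2 to 83.3 and 77.2 to 95.8 CPM, nearly all from NES (mean 76.9 CPM), with PAX6 at 5 counts or fewer and SOX1, NEUROD1, OLIG2 and ELAVL3 at most 3, and the 4 blood and vessel markers, with PTPRC and PECAM1 at 0, to 110.4 to 120.2 and 78.7 to 119 CPM. Only part of the defining markers of the labelled cell type was thus present. The part of these cell types in the values below was not tested, and in bulk RNA fewer cells of a type and less RNA per cell cannot be told apart.

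Across the 6 libraries the members fell into a clear order of abundance. To compare genes, each CPM was divided by the length of the gene's merged exons in kilobases. CDKN1A, which encodes p21, had the highest level, 73.5 CPM per kilobase on average (67.9 to 77.6), followed by CCND2 at 44.4 (42.7 to 47.4). CDKN1B, which encodes p27, at 21.5 (19.1 to 25.9), and CDK6 at 20.2 (15.2 to 22.6) came next and overlapped, CDKN1B being the higher in 3 of 6 libraries. CCNE1 at 9.20 (8.11 to 10.6) and CCND3 at 4.46 (4.28 to 4.69) followed, each with a range separate from its neighbours. CDKN2B at 1.30 (0.961 to 1.79), CCNE2 at 1.17 (0.916 to 1.50) and CCND1 at 0.946 (0.714 to 1.26) formed a group of low genes whose ranges overlapped from one to the next. CDKN2A was last at 0.207 (0.127 to 0.264), below CCND1 by 4.57-fold and below it in 6 of 6 libraries. With the longest annotated transcript in place of the merged exons, CCNE2 (1.55 CPM per kilobase) moved above CDKN2B (1.35). The remaining order of the means was the same. CCND3 rose to 10.8 (10.4 to 11.4) and then overlapped CCNE1 at 11.5 (10.1 to 13.3). CDKN2A rose to 0.698 (0.429 to 0.890) and then overlapped CCND1 at 1.06 (0.801 to 1.42).

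**Figure D1:**
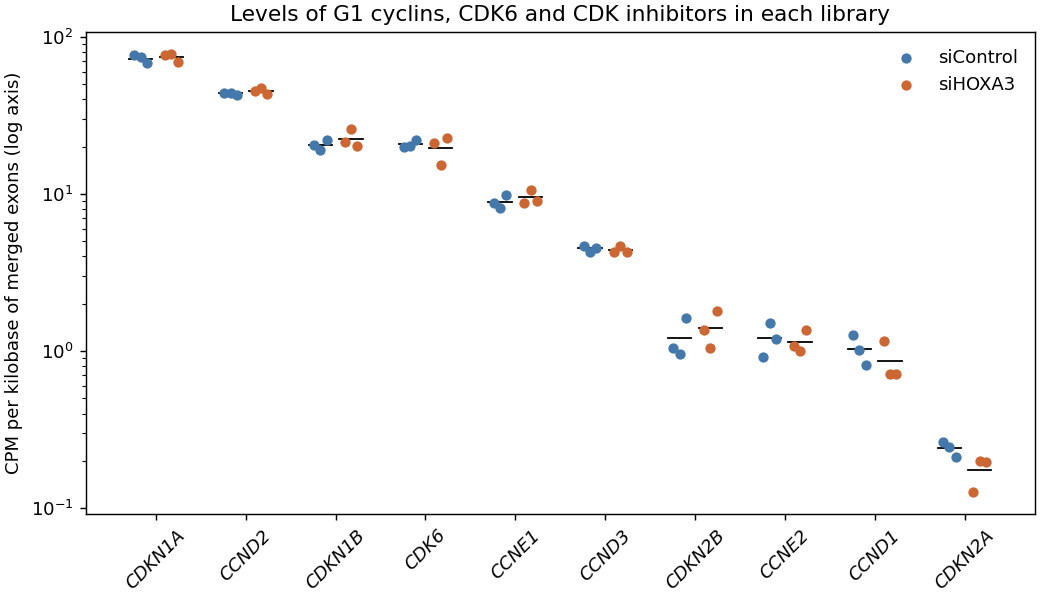
Level of each of the 10 genes in each library, in CPM per kilobase of merged exons on a log axis, with genes ordered by their mean over the 6 libraries. Each point is a library (3 siControl, 3 siHOXA3) and each short line a group mean. CDKN1A lies at 67.9 to 77.6 and CDKN2A at 0.127 to 0.264, and within each gene the groups lie close to each other.

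None of the 10 members had an adjusted p under 0.05 in edgeR's quasi-likelihood test with Benjamini-Hochberg adjustment, against 0.00604% of the 16561 genes tested, and none had an unadjusted p under 0.05, against 6.36% of all genes (3.79% higher and 2.57% lower in siHOXA3). DESeq2 and limma-voom gave 0 of 10 at either threshold as well. The point estimates were split evenly, with 5 genes above and 5 below 0 (49.6% of all genes were below), and their median log2 fold change was 0.001 beside 0.002 over all genes. In 1 of 10, CDKN2A, the groups did not overlap, against 13.3% of all genes (6.41% higher and 6.88% lower in siHOXA3). The widths of the intervals differed greatly between members, and each interval is given below with its gene. Gene positions are those of GENCODE 29 on GRCh38. All 10 genes are annotated as protein-coding.

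**Figure D2:**
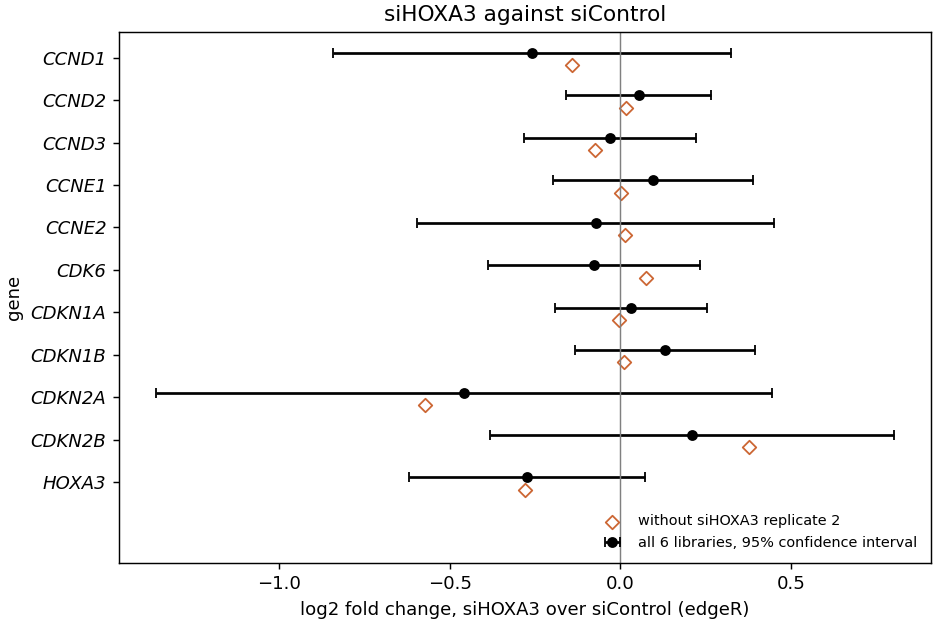
Log2 fold change of siHOXA3 over siControl for the 10 genes and for HOXA3, the target of the siRNA. Filled points are the estimates from all 6 libraries with 95% confidence intervals, and open diamonds the estimates without siHOXA3 replicate 2. Every interval includes 0, and the intervals of CDKN2A (-1.36 to 0.44), CDKN2B (-0.38 to 0.80) and CCND1 (-0.84 to 0.32) are the widest of the 10 genes.

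Among the D-type cyclins, which carry growth signals to CDK4 and CDK6, these cells contained mainly CCND2. CCND2, on the plus strand of chromosome 12 (4273772 to 4305350), had 315, 316 and 306 CPM in siControl and 322, 339 and 309.8 CPM in siHOXA3. The groups overlapped, with siHOXA3 replicate 2 the highest library. Its log2 fold change was 0.05 (SE 0.097, adjusted p = 0.933), and its 95% interval ran from a ratio of 0.895 to one of 1.20. The spread was 1.76% of the mean in siControl and 4.57% in siHOXA3, where counting alone gives 1.46%, and CCND2 had the smallest SE of the 10 genes. In GENCODE 29, 13.8% of the exon bases of CCND2 are shared with AC008012.1 on the same strand, so that reads there could have been given to either gene.

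CCND1, the D-type cyclin best known as a target of Wnt and mitogen signals, lies on the plus strand of chromosome 11 (69641087 to 69654474). It had 91, 74 and 60 counts in siControl and 81, 52 and 49 in siHOXA3. In CPM these were 6.11, 4.89 and 3.93 in siControl and 5.57, 3.46 and 3.45 in siHOXA3. siHOXA3 replicate 1 lay above siControl replicates 2 and 3, so the groups overlapped. On the log2 scale the difference was -0.26 (SE 0.265, adjusted p = 0.887), with an interval from 0.558 to 1.25 as a ratio, and it was -0.14 without siHOXA3 replicate 2 or 3, -0.08 without siControl replicate 1, -0.40 without siControl replicate 3 and -0.52 without siHOXA3 replicate 1. The spread of CCND1 within the groups, 21.9% of the mean in siControl and 29.4% in siHOXA3, exceeded the 12.1% expected from counting. The sums of 225 and 182 reads carry exact Poisson intervals of 197 to 256 and 157 to 210, which overlap. LTO1 on the opposite strand shares 10.3% of the exon bases of CCND1, and no source used here says whether reads were counted by strand.

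CCND3, the other D-type cyclin, on the minus strand of chromosome 6 (41934933 to 42050357), was at 27.2, 24.9 and 26.3 CPM in siControl and 24.8, 27.0 and 24.9 CPM in siHOXA3. Both groups covered nearly the same range. Its log2 fold change was -0.03 (SE 0.115, adjusted p = 0.967), with a ratio between 0.822 and 1.17. Per kilobase, CCND2 exceeded CCND3 by 9.70 ± 0.521-fold in siControl and 10.3 ± 0.236-fold in siHOXA3 (SD, n = 3). With the longest transcript as the length, these folds were 4.42 and 4.68. Per kilobase of merged exons, the excess of CCND2 over CCND1 was 43.6 ± 8.87-fold and 55.3 ± 14.3-fold, and ranged from 34.8-fold to 66.2-fold over the 6 libraries.

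In the makeup of the D-type cyclin pool, the groups overlapped for each of the 3 genes. CCND2 made up 88.7% ± 0.611 of the summed level per kilobase in siControl and 89.6% ± 0.298 in siHOXA3, and CCND3 9.17% ± 0.432 and 8.73% ± 0.223 (SD, n = 3). With the longest transcript as the length, CCND3 made up 18.1% and 17.3% and CCND2 79.96% and 81.1%. CCND1 made up 2.53, 2.05 and 1.69% in siControl and 2.28, 1.36 and 1.48% in siHOXA3. The first replicate of each group had its highest share of CCND1, and the groups overlapped. The difference in the share of CCND1 was -0.385 percentage points (exact two-sided permutation test, p = 0.4, adjusted over 2 such tests p = 0.8), in a design whose smallest possible p is 0.1.

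Of the E-type cyclins, which activate CDK2 at the border of S phase, CCNE1 (chromosome 19, 29811898 to 29824308, plus strand) was the abundant one. It had 22.2, 20.7 and 25.2 CPM in siControl and 22.5, 27.1 and 23.1 CPM in siHOXA3. siHOXA3 replicate 2 was the highest library, and the other siHOXA3 libraries lay within the siControl range. Its log2 fold change was 0.10 (SE 0.134, adjusted p = 0.916), with a ratio between 0.872 and 1.31, and 0.0032 without siHOXA3 replicate 2. CCNE1 shared no 50-base stretch with any other annotated transcript.

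CCNE2, its paralog on the minus strand of chromosome 8 (94879770 to 94896678), had 60, 100 and 80 counts in siControl and 69, 66 and 85 in siHOXA3, or 4.03, 6.61 and 5.24 CPM and 4.74, 4.39 and 5.99 CPM. The siControl group alone contained both the highest and the lowest library. Its log2 fold change was -0.07 (SE 0.238, adjusted p = 0.960), with a ratio between 0.662 and 1.37, and the sign changed when siHOXA3 replicate 2 was left out (0.015). INTS8, on the opposite strand, shares 37.0% of the exon bases of CCNE2, and 35.2% of its 50-base stretches also occur in INTS8 transcripts, so that part of these few reads may belong to INTS8 if strand was not used. Per kilobase, CCNE1 made up 88.0% ± 3.23 of the E-type cyclin level in siControl and 89.2% ± 2.24 in siHOXA3 (SD, n = 3).

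CDK6, the G1 kinase that partners D-type cyclins, differed mainly in 1 library. The gene lies on the minus strand of chromosome 7 (92604921 to 92836594) and had 244, 249 and 271 CPM in siControl and 260.1, 187 and 277 CPM in siHOXA3. siHOXA3 replicate 2 was the lowest of the 6 libraries, and siHOXA3 replicate 3 the highest. The log2 fold change was -0.08 (SE 0.142, adjusted p = 0.933), with a ratio between 0.764 and 1.18, and it was 0.07 without siHOXA3 replicate 2. The spread of CDK6 was 5.71% of the mean in siControl and 19.9% in siHOXA3, both above the 1.65% from counting. The summed D-type cyclin level was 2.51, 2.44 and 2.17 times that of CDK6 in siControl and 2.38, 3.47 and 2.14 times in siHOXA3 (2.37 ± 0.176 and 2.66 ± 0.708; SD, n = 3), so the high ratio was also that of siHOXA3 replicate 2.

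**Figure D3:**
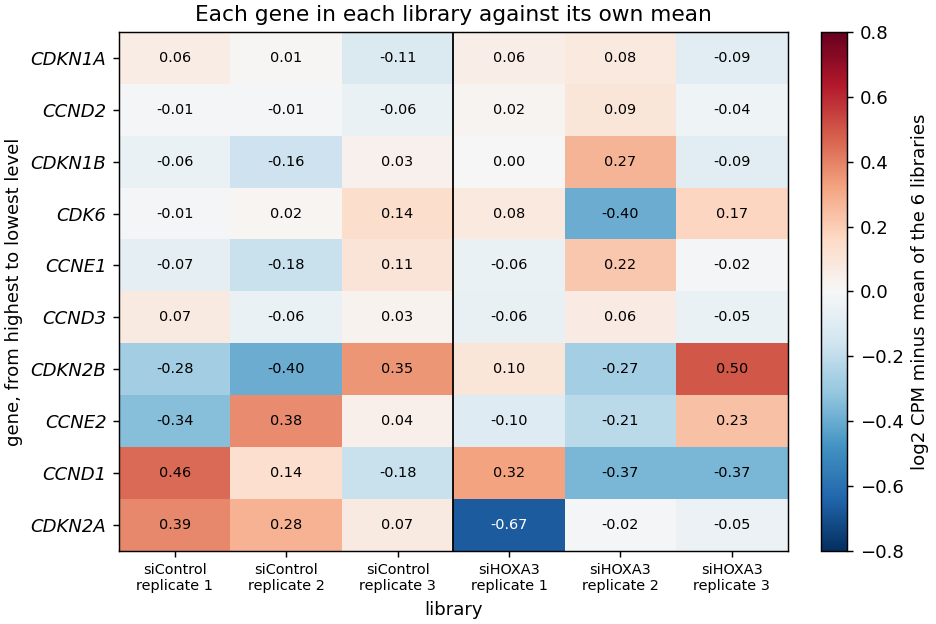
Log2 CPM of each of the 10 genes in each of the 6 libraries, minus the gene's mean over the 6 libraries; red is above and blue below that mean. In siHOXA3 replicate 2, CDK6 lies 0.40 below its mean while CDKN1B lies 0.27 and CCNE1 0.22 above theirs, and the widest swings over all libraries are those of the low genes CDKN2A, CCND1, CDKN2B and CCNE2.

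The Cip/Kip inhibitors were abundant in every library. CDKN1A, the p21 gene and a classical p53 target, lies on the plus strand of chromosome 6 (36676460 to 36687339). It had 233, 225 and 207 CPM in siControl and 233, 237 and 211 CPM in siHOXA3. The 2 groups covered almost the same range, and in each the third replicate was the lowest. Its log2 fold change was 0.03 (SE 0.101, adjusted p = 0.959), with a ratio between 0.877 and 1.19, and -0.0035 without siHOXA3 replicate 2. DINOL, a long noncoding RNA on the opposite strand, shares 4.79% of the exon bases of CDKN1A.

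CDKN1B, the p27 gene on the plus strand of chromosome 12 (12715058 to 12722371), had 57.9, 53.7 and 61.6 CPM in siControl and 60.4, 72.8 and 56.4 CPM in siHOXA3. siHOXA3 replicate 2 was again the highest library, and the other siHOXA3 libraries lay inside the siControl range. The difference on the log2 scale was 0.13 (SE 0.120, adjusted p = 0.873), with a ratio between 0.911 and 1.31, and it was 0.01 without siHOXA3 replicate 2. Per kilobase, CDKN1A exceeded CDKN1B by 3.56 ± 0.406-fold in siControl and 3.33 ± 0.296-fold in siHOXA3 (SD, n = 3), and it made up 77.9% ± 2.06 and 76.8% ± 1.64 of their sum.

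The INK4 inhibitors, which block CDK4 and CDK6 and are widely used as markers of senescence, stood in the lower part of the order, CDKN2A with few reads in every library. CDKN2A, which encodes p16INK4a and p14ARF from different first exons, lies on the minus strand of chromosome 9 (21967753 to 21995301). It had 17, 16 and 14 counts in siControl and 8, 13 and 12 in siHOXA3. In CPM these were 1.14, 1.06 and 0.917 in siControl and 0.550, 0.864 and 0.845 in siHOXA3. All siHOXA3 libraries lay below all siControl libraries, and 6.88% of all genes tested were separated in this direction. The log2 fold change was -0.46 (SE 0.411, adjusted p = 0.868, edgeR), with a ratio anywhere from 0.389 to 1.36, and -0.57 without siHOXA3 replicate 2 but -0.28 without siHOXA3 replicate 1. An exact two-sided permutation test of the log2 CPM gave p = 0.1, the smallest possible with 3 against 3. The separation of the groups alone fixes this p, so it adds nothing to it. The sums of 47 and 33 reads have exact Poisson intervals of 34.5 to 62.5 and 22.7 to 46.3, which overlap, and counting alone gives a spread of 27.4% of the mean. The counts cannot be divided between p16INK4a and p14ARF. CDKN2B-AS1, on the opposite strand, shares 7.88% of the exon bases of CDKN2A.

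CDKN2B, the p15INK4b gene and a known TGF-beta target, is its neighbour on the same strand (22002903 to 22009363). It had 63, 59 and 100 counts in siControl and 80, 64 and 103 in siHOXA3, or 4.23, 3.90 and 6.55 CPM and 5.50, 4.26 and 7.25 CPM. The third replicate was the highest in both groups and the groups overlapped. The estimate on the log2 scale was 0.21 (SE 0.269, adjusted p = 0.908), with a ratio between 0.768 and 1.74, and 0.38 without siHOXA3 replicate 2. All cells had been cultured with SB431542, which inhibits TGF-beta receptors, until that medium was replaced on day 7. Per kilobase, CDKN2A and CDKN2B together made up 1.53% ± 0.398 of the summed level of the 4 inhibitors in siControl and 1.62% ± 0.504 in siHOXA3 (SD, n = 3), and 1.70% and 1.64% with the longest transcript as the length, where the order of the groups was the opposite. CDKN1A exceeded CDKN2A by 289.8-fold to 601-fold over the 6 libraries, and by 116-fold to 239.5-fold with the longest transcript as the length.

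The balance of inhibitors and cyclins was compared within each library, where library size has no part. The log2 ratio of the summed Cip/Kip level to the summed D-type cyclin level was 0.959, 0.912 and 0.902 in siControl and 0.955, 0.972 and 0.884 in siHOXA3. The siHOXA3 group held both the highest and the lowest ratio. The means were 0.924 ± 0.030 and 0.937 ± 0.046 (SD, n = 3), and the difference of 0.013 was smaller than the spread within either group (exact two-sided permutation test, p = 0.9, adjusted p = 0.9). Without siHOXA3 replicate 2 it was -0.0048.

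**Figure D4:**
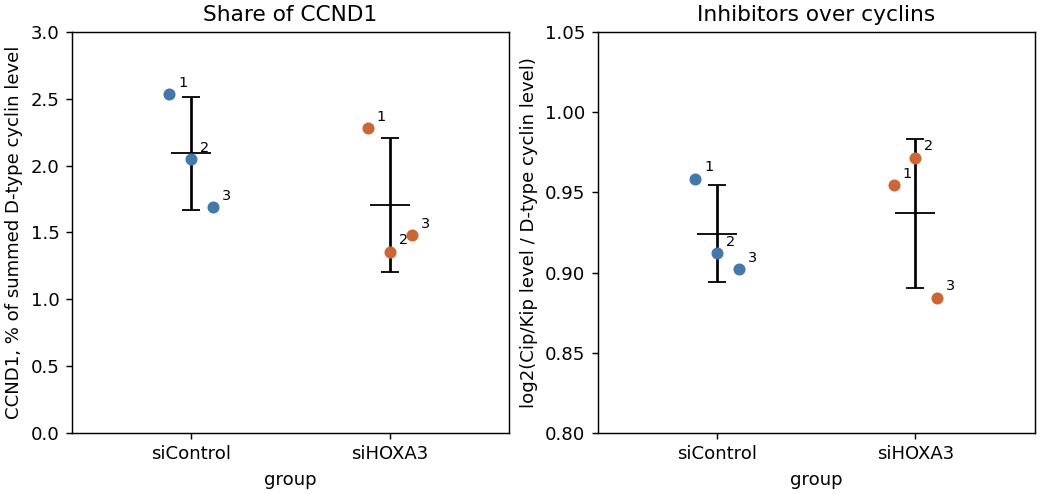
Left, share of CCND1 in the summed level per kilobase of CCND1, CCND2 and CCND3, in percent. Right, log2 ratio of the summed level of CDKN1A and CDKN1B to that of the D-type cyclins, on an axis that does not start at 0. Points are libraries with their replicate number, and bars are the mean ± SD of 3 libraries; the groups overlap in both panels.

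The genes of the pathway most similar to CCND1, CDKN1A and CDK6 over the 6 libraries were listed as a description, by the root mean square difference of log2 CPM after each gene was centred on its own mean, among 156 genes. For CCND1 they included FOXO3 (0.217) and FBXO31 (0.240), beside a median of 0.368 over all 156. For CDKN1A they were the phosphatase gene CDC25B (0.036), CCND2 (0.046) and TCF7L2 (0.060), beside a median of 0.156. For CDK6 they were AMBRA1 (0.077), E2F2 (0.086) and E2F7 (0.101), beside a median of 0.253, and the low value of siHOXA3 replicate 2 enters all of these differences. Genes that vary little are close to each other by this measure whatever their function.

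Around the 10 members, 149 other genes of the pathway were examined in 8 lists, of which 147 were tested. None had an adjusted p under 0.05 in edgeR, DESeq2 or limma-voom. At an unadjusted p under 0.05, 5 were higher and 4 lower in siHOXA3, a count of 9 of 147 beside 6.36% of all genes, and 10 genes met it in DESeq2. The groups did not overlap for 13 higher and 11 lower genes, beside 6.41% and 6.88% of all genes, and the median log2 fold change was 0.001. Without siHOXA3 replicate 2 the unadjusted count was 26 beside 10.7% of all genes, and with limma-voom's quality weights 28 beside 13.3%.

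Of the 15 other G1 kinases, activators and inhibitors, 11 had a positive and 4 a negative estimate, with a median of 0.05. CDKN1C, the third Cip/Kip inhibitor (p57), had the lowest p of this list. It was at 44.1, 43.7 and 35.6 CPM in siControl and 45.8, 68.2 and 54.5 CPM in siHOXA3, and every siHOXA3 library lay above every siControl library. The log2 fold change was 0.45 (SE 0.152, adjusted p = 0.710, edgeR), which does not pass the adjusted threshold, and 0.28 without siHOXA3 replicate 2, its highest library. CDC25A, the phosphatase that activates CDK2, was at 52.4 ± 2.08 and 53.5 ± 3.31 CPM (SD, n = 3; log2 fold change 0.03, adjusted p = 0.959).

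The 13 pocket proteins and E2F factors, the direct targets of G1 kinases, had 9 negative estimates and a median of -0.13, and in 3 of them all siHOXA3 libraries were below all siControl libraries, beside 6.88% of all genes. None had an unadjusted p under 0.05. E2F7, a repressor of the E2F family, had the largest difference, with 73.1 ± 5.93 and 62.0 ± 8.89 CPM (log2 fold change -0.24, adjusted p = 0.807). Of the 11 ubiquitin ligase parts that turn over these proteins, 9 had negative estimates and a median of -0.07, and none had an unadjusted p under 0.05. FBXO4 was the farthest from 0 (log2 fold change -0.23, adjusted p = 0.890).

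The E2F target genes of S phase entry showed the same absence of a called difference. Of 26 genes, 10 had positive and 16 negative estimates, the median was -0.01, and none had an unadjusted p under 0.05. PCNA, the sliding clamp of DNA replication, had 234 ± 9.26 and 256 ± 58.9 CPM (log2 fold change 0.13, adjusted p = 0.893), and -0.07 without siHOXA3 replicate 2. MCM2, a subunit of the replicative helicase, had 102 ± 3.96 and 91.2 ± 9.38 CPM (-0.16, adjusted p = 0.832). CDC45, which joins that helicase, had 30.9 ± 1.62 and 32.6 ± 3.85 CPM (0.08, adjusted p = 0.926). GINS2 had the largest estimate of the list (0.22, adjusted p = 0.829).

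Of the 19 mitosis and proliferation genes, 13 had positive and 6 negative estimates with a median of 0.07, and none had an unadjusted p under 0.05. AURKB, a mitotic kinase, was the farthest from 0 (0.26, adjusted p = 0.781). MKI67, the gene of the Ki-67 proliferation antigen, had 378 ± 39.7 and 390.2 ± 134 CPM (log2 fold change 0.05, adjusted p = 0.972). Without siHOXA3 replicate 2, the library in which it was lowest, the estimate was 0.30 (adjusted p = 0.162). CDC25C, a phosphatase of mitotic entry, had 26.9 ± 0.206 and 25.3 ± 2.09 CPM (-0.09, adjusted p = 0.914).

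Of p53 and its targets, 24 genes, 1 was higher and 1 lower at an unadjusted p under 0.05, beside 3.79% and 2.57% of all genes, with a median of -0.03. GDF15, a stress-induced cytokine, had 16.5 ± 2.82 and 20.9 ± 0.205 CPM (log2 fold change 0.34, adjusted p = 0.761). BTG2, an antiproliferative gene, had 70.6 ± 0.357 and 56.9 ± 3.73 CPM (-0.31, adjusted p = 0.662). Both were separated between groups, in opposite directions, while CDKN1A, a target of the same factor, had an estimate of 0.03.

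Among 22 upstream regulators, LEF1, a transcription factor of the Wnt pathway, was higher at an unadjusted p under 0.05, with 11.6 ± 1.22 and 14.8 ± 0.856 CPM (log2 fold change 0.35, adjusted p = 0.741). ETS1 was lower, with 47.7 ± 1.80 and 40.7 ± 2.26 CPM (-0.23, adjusted p = 0.777). MYC, an activator of cyclin genes, had 5.36 ± 0.774 and 5.58 ± 0.592 CPM (0.06, adjusted p = 0.962). The median of the list was 0.04, and -0.08 without siHOXA3 replicate 2.

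The list of quiescence and senescence genes had 4 genes with an unadjusted p under 0.05 among 17 tested, 2 in each direction, beside 6.36% of all genes. GAS1, a growth arrest gene, had 31.6 ± 1.29 and 42.5 ± 1.85 CPM (log2 fold change 0.43, adjusted p = 0.486). IGFBP7, a secreted factor linked to senescence, had 36.9 ± 4.50 and 50.8 ± 10.4 CPM (0.46, adjusted p = 0.692). GAS6, a ligand of TAM receptors, had 50.7 ± 3.54 and 40.7 ± 4.11 CPM (-0.32, adjusted p = 0.724). None passed the adjusted threshold.

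**Figure D5:**
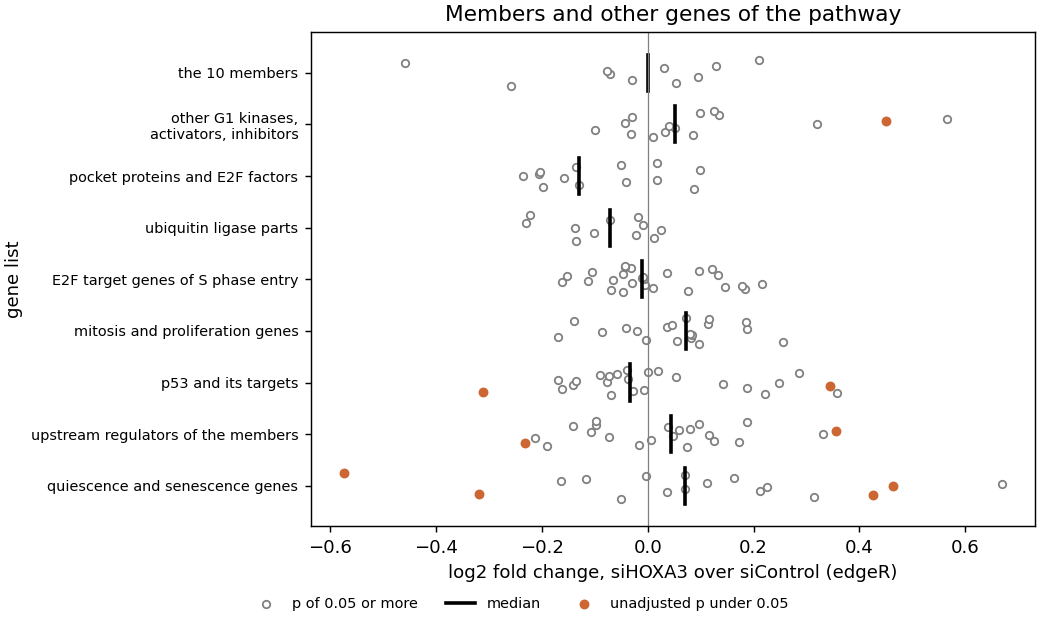
Log2 fold change of siHOXA3 over siControl for the 10 members and for the tested genes of the 8 other lists of the pathway. Each circle is a gene, filled where its unadjusted p was under 0.05, and each black line is the median of a list. No member is filled, and 9 of the 147 other genes are.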

How the data were processed

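RNA-seq was performed on 3 siControl and 3 siHOXA3 samples, grouped by the sample labels. The authors deposited raw counts of reads per gene, without normalization. Per the labels, libraries were made by the LM-Seq protocol and with a SMARTER kit. Aligner, counter and use of strand are not given in the sources used here. The submitters' processing notes name mouse builds (GRCm38, mm10), but all 58735 identifiers are human Ensembl identifiers found in GENCODE 29 (GRCh38), from which symbols, positions and lengths were taken. No column was without a sample.

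Here, edgeR 4.0.16 (R 4.3.3) was run on the counts. Its default filter kept 16561 genes, and it used TMM factors (0.986 to 1.01), a robust quasi-likelihood fit and Benjamini-Hochberg adjustment over all genes tested, at a threshold of 0.05. CPM uses the normalized library size. Shares and ratios were tested by exact permutation over libraries (Python 3.11.15), and the Poisson intervals were computed with scipy 1.17.1. No 2 libraries differed by as little as sampling noise. Alternatives were DESeq2 1.42.0, limma 3.58.1 (voom with quality weights), other normalizations and filters, a replicate block and each library left out. On simulated counts of 16569 genes with log2 changes of 1 and 2 in this design, 88% and 98.9% were recovered and 3.70% of calls were false. The simulation gave every gene the same dispersion, placed changes only in genes with enough reads and held no library that stood apart. These rates thus do not carry over to the 6 libraries.

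The members, gene lists and tests were chosen with earlier results of these data known. Genes named beyond the members were HOXA3, 7 cell cycle genes that the study assayed or that act at the same step, those with an unadjusted p under 0.05 in the pathway lists or else the largest change per list, and the nearest profiles of CCND1, CDKN1A and CDK6. Protein sequences and the siRNA sequences are not used here. Single values of a few genes of the lists are not reported here.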

Additional observations from a re-analysis of the deposited data

How the results depend on the processing

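Under 13 alternatives, none of the 10 genes reached an adjusted or unadjusted p under 0.05, and the lowest adjusted p was 0.441. Requiring more than 1 CPM in 3 or more libraries removed CDKN2A, so 9 genes were tested there. Of 129 values of single members, 122 kept the sign and 7, in 4 genes, changed it. Without siHOXA3 replicate 2, CCNE2 was at 0.015, CDK6 at 0.074, CDKN1A at -0.0035 and the log2 ratio of Cip/Kip inhibitors to D-type cyclins at -0.0048 (range with 1 library left out, -0.0048 to 0.039). CCNE2 was at 0.12 without siControl replicate 2, CDKN1A at -0.015 without siControl replicate 3, CDKN2B at -0.0044 without siHOXA3 replicate 3, and CDK6 at 0.045 with limma-voom. With 1 library left out, CCNE2 ranged from -0.23 to 0.12, CDK6 from -0.19 to 0.074, CDKN1A from -0.015 to 0.084, CDKN2B from -0.0044 to 0.48, CCND1 from -0.52 to -0.085 and CDKN2A from -0.57 to -0.28. The median over members ranged from -0.020 to 0.038 with 1 library left out, and the cause was not tested. The difference in the share of CCND1 ranged from -0.674 to -0.164 percentage points with 1 library left out.

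Over all genes, 1 passed the adjusted threshold in edgeR, 38 in DESeq2, 100 without a filter, 47 with limma-voom and 24 without siHOXA3 replicate 2. Added after seeing the data, the count of other pathway genes at an unadjusted p under 0.05 ranged from 6 to 26 with 1 library left out, and 8 of 17 quiescence and senescence genes met it with limma-voom, beside 13.3% of all genes. With the replicate number as a block, the members' median was 0.001, 0 of 10 passed either threshold and 4 genes in all passed the adjusted one. Same-numbered libraries deviated together weakly (correlations of 0.142, 0.104 and -0.059), so the numbers were not taken as a pairing. Depth limits CDKN2A most, with 8 to 17 reads per library.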
